A study of Homo sapiens with 24 samples.

Results

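The transcriptome of HCT116 cells after 4 days without both UHRF1 and DNMT1 was compared with that of cells that had lost DNMT1 alone. HCT116 comes from a human colorectal carcinoma. Its derivatives carried auxin-inducible degrons (AID), short tags by which a protein is degraded once auxin is added, by way of the plant F-box protein OsTIR1, which all lines expressed under doxycycline, the WT line included. Members of the comparison were the 3 libraries labelled UHRF1-AID/DNMT1-AID day 4 and the 3 labelled DNMT1-AID day 4, 6 of the 24 libraries of the series. UHRF1 carried its degron with mClover at the C terminus and DNMT1 with mRuby2 at the N terminus. OsTIR1 was induced for 1 day with 2 µg/mL doxycycline while 20 µM auxinole kept it inactive, and cells at day 4 then had 4 days of 500 µM auxin with doxycycline, whereas cells at day 0 had no auxin. The same lines at day 0, with 3 libraries each, gave the difference between the lines before either protein was removed, and the 3 WT day 4 libraries gave the level in cells with no degron tag. The study describes 3 separate clones for each degron construct, but the labels give only replicate numbers, so p-values measure the spread between these libraries, which may be in part technical.

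DNMT1 copies methylation marks onto the new DNA strand at replication. UHRF1 binds hemimethylated CpG sites, where only the parental strand is methylated, and recruits DNMT1 to them, and it also carries a ubiquitin ligase domain. In cancer cells methylated promoters keep many germline genes silent, and loss of methylation is known to bring such genes back and to raise interferon-stimulated genes. The comparison addresses what removing UHRF1 adds to gene expression when DNMT1 is already gone.

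The 6 libraries at day 4 held between 15824804 and 16987046 counts on genes, and the count tables place them with the WT day 4 libraries in another alignment folder than all day 0 libraries. Between 18818 and 19305 genes had a count in the DNMT1-AID libraries and between 20768 and 21183 in the UHRF1-AID/DNMT1-AID libraries, without overlap. Spike-in RNA took between 1.34% and 1.42% of all counts in the former and between 1.48% and 1.65% in the latter. Of the colorectal epithelial markers 8 of 9 were tested, and their summed level lay between 7914 and 9008 CPM (counts scaled to equal library totals) with DNMT1 lost and between 5718 and 6402 with both lost. Only 1 of 8 fibroblast, 3 of 8 leukocyte and 1 of 6 endothelial markers had enough counts to be tested, with summed levels over all members of at most 20.8, 41.6 and 2.90 CPM. In bulk RNA, fewer cells of a type and less RNA per cell cannot be told apart.

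With UHRF1 lost in addition to DNMT1, more genes past the fold threshold were higher than lower. A gene was called at a Benjamini-Hochberg adjusted p under 0.05 in edgeR's quasi-likelihood test and an absolute log2 fold change over 1. Of 14246 genes tested 818 (5.74%) were called higher with both proteins lost than with DNMT1 lost, and 156 (1.1%) were called lower. The replicates of the 2 groups did not overlap in 814 of the former and 155 of the latter, against 18.8% and 18.3% of all tested genes that were higher or lower without overlap. Without a minimum fold the numbers were close, 1524 higher and 1395 lower, and among genes with at least 10 counts in every library 255 and 127 were called. Scaled by the spike-in counts instead, the numbers were 754 and 264, with the median of all genes shifted to -0.16 on the log2 scale. The volcano plot shows the asymmetry, with 568 of the higher genes over 2 on the log2 scale and only 13 of the lower genes below -2.

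**Figure D1:**
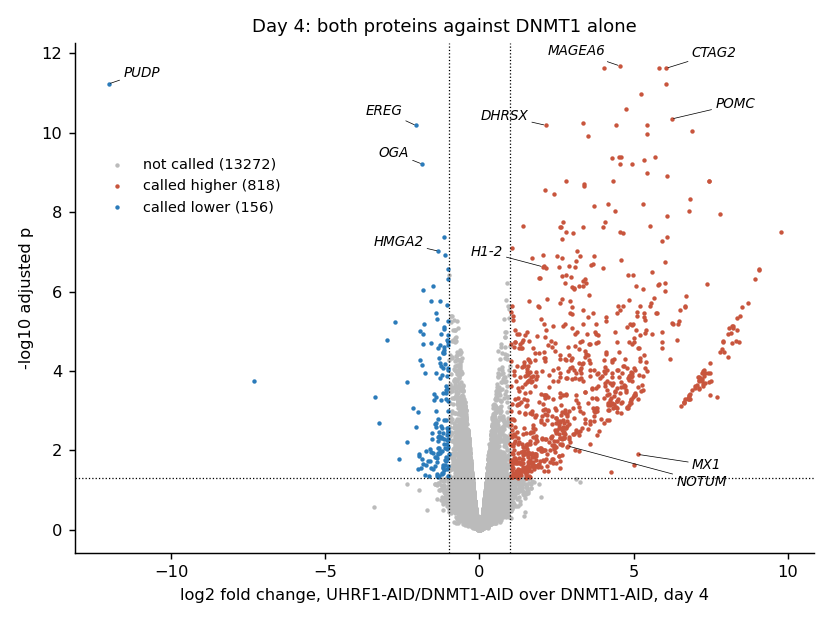
Each point is 1 of 14246 tested genes, with the log2 fold change of UHRF1-AID/DNMT1-AID over DNMT1-AID at day 4 on the x axis and -log10 of the adjusted p on the y axis, and dotted lines mark the thresholds. The 818 genes called higher (red) reach far beyond the 156 called lower (blue), and the outermost red points are genes with few or no counts in DNMT1-AID cells, whose fitted fold depends on the prior count.

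Most genes that rose were near silence in DNMT1-AID cells. Their median level was 0.329 CPM with DNMT1 lost and 2.48 CPM with both lost, and 0.0428 CPM in WT day 4 libraries. In 252 of them every DNMT1-AID library had 3 counts or fewer, and in 501 every WT day 4 library did. Levels stayed modest after the rise, since 125 passed a mean of 10 CPM in UHRF1-AID/DNMT1-AID cells. The genes that fell had medians of 12.7 CPM in WT cells, 13.1 CPM with DNMT1 lost and 5.04 CPM with both lost. With both lost, 24 of these 156 were under a mean of 1 CPM and 2 had 3 counts or fewer in every library.

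The degron acts on protein, so the transcripts of the tagged genes do not check the depletion. UHRF1 stood at 40.1, 37.6 and 33.2 CPM in the DNMT1-AID libraries and at 27.3, 52.1 and 57.9 in the UHRF1-AID/DNMT1-AID libraries, which overlapped (log2 fold change 0.30 ± 0.30 SE, adjusted p = 0.549). DNMT1 transcript lay between 13.2 and 16.7 CPM in the former and between 9.49 and 14.6 in the latter (-0.30 ± 0.17, adjusted p = 0.215). Among the enzymes that write or remove methylation de novo, DNMT3B, a de novo methyltransferase, was at 10.2, 13.4 and 9.78 CPM with DNMT1 lost and at 6.96, 7.29 and 7.53 with both lost. All 3 of its UHRF1-AID/DNMT1-AID libraries lay below all 3 DNMT1-AID libraries (-0.62 ± 0.17, adjusted p = 0.0144, under the fold threshold). DNMT3A, TET2 and TET3 gave adjusted p of 0.988, 0.843 and 0.224, and TET1 was too scarce to be tested. Of 9 genes of the maintenance machinery 0 were higher and 2 lower at an adjusted p under 0.05 alone in edgeR (1 and 3 at an unadjusted p under 0.05), none past the fold threshold, where 10.7% of all tested genes were higher and 9.79% lower by that rule. Of 34 Polycomb and H3K9 silencing genes 2 were higher and 2 lower (2 and 5 unadjusted), again none past the fold threshold.

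Cancer/testis genes, which code for tumour antigens normally restricted to the testis and lie mostly on the X chromosome, held more called genes than any other list. Their promoters are known targets of silencing by methylation. The MAGEA6 window is shown with CpG sites in capitals because MAGEA6 gave the smallest p of all genes. It runs from 250 bases before to 50 after the RefSeq start on the minus strand (GRCh38.p14, chrX:152769640-152769939) and holds 19 CpG.
MAGEA6: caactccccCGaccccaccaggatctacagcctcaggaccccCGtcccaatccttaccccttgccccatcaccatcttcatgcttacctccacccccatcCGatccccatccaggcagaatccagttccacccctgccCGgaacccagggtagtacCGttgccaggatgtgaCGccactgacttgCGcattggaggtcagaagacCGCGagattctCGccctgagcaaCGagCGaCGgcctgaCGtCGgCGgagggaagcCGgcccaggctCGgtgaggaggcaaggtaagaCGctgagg

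Of the 132 list members, 117 of them on the X chromosome, 77 had a count at day 4, 37 had enough to be tested and 30 were called higher, none lower. The median log2 fold change was 3.72 over the tested members, and 3.51 when members with 3 counts or fewer in every DNMT1-AID library were set to their lower bound, against -0.01 over all genes. Because the filter keeps a silent gene only where it is high in 1 group, these medians describe the members that passed. Without any filter, between 31 and 34 of the 132 exceeded 3 counts in a DNMT1-AID library and between 49 and 56 in a UHRF1-AID/DNMT1-AID library.

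MAGEA6, a MAGE family antigen (chrX:152766136-152769747), was at 2.56, 2.74 and 2.31 CPM in DNMT1-AID and at 57.2, 54.9 and 67.2 CPM in UHRF1-AID/DNMT1-AID libraries. The groups were far apart, with a 23.4-fold rise (log2 4.55 ± 0.14, adjusted p = 2.06e-12). CTAG2, the gene of the antigen LAGE-1 (chrX:154651972-154653579), went from 0.595, 1.52 and 1.25 CPM to 67.9, 75.6 and 82.7 CPM, 66.8-fold (6.06 ± 0.19, adjusted p = 2.36e-12). No WT day 4 library had a CTAG2 count, and the degron groups did not overlap. MAGEA12 rose 16.4-fold from a mean of 2.96 to 49.0 CPM and MAGEA1 26.7-fold from 1.99 to 53.9 CPM. PAGE2B, a PAGE family antigen, rose 66.8-fold from 0.329 to 22.7 CPM, with adjusted p of at most 2.55e-11 for these 3. Before auxin the line with both degrons already stood higher for MAGEA12, without a call (log2 4.46, adjusted p = 0.317). The change between days was called for MAGEA6 (interaction 3.39, adjusted p = 0.0117) and PAGE2B (9.84, 0.00335). PAGE2B was at most 0.145 CPM in DNMT1-AID and at 0 in UHRF1-AID/DNMT1-AID libraries at day 0. The size of its interaction thus depends on the prior count. The change between days was not called for MAGEA12 (-0.39, 0.915), MAGEA1 (-1.74, 0.794) or CTAG2 (1.52, 0.862). Of 41 list members tested for it 3 were called larger and 0 smaller, against 0.614% and 0.376% of all genes.

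Members did not all start from the same place. MAGEB2, chosen after its values were seen, was already at 339, 334 and 359 CPM in DNMT1-AID libraries and between 346 and 394 CPM in WT day 4 libraries. With both lost it stood at 402, 436 and 430 CPM, a small difference under the fold threshold (0.29 ± 0.08, adjusted p = 0.0178). MAGEA4, also chosen after its values were seen, varied more than the others after the rise. It was at 21.7, 29.5 and 17.0 CPM in DNMT1-AID libraries and at 113, 638 and 580 CPM in UHRF1-AID/DNMT1-AID libraries (4.28 ± 0.85, adjusted p = 0.0346). Replicate 1 thus held far less of it than replicates 2 and 3, and the same library was lowest for MAGEA10 (1.82, 10.2 and 11 CPM). Many members have near-identical copies (MAGEA3 and MAGEA6, MAGEA9 and MAGEA9B, PAGE2 and PAGE2B, the CT45, GAGE and SSX families), and how reads matching several of them were counted is not stated, so the split between copies is uncertain.

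The share of genes called higher was larger on the X chromosome than on any other, with and without these genes. Of 503 genes tested there 80 (15.9%) were called higher, against between 2.06% and 7.24% on each other chromosome. With the cancer/testis list set aside, 50 of 467 (10.7%) were called higher, against 738 of 13743 (5.37%) on all other chromosomes. DHRSX, a dehydrogenase gene of the pseudoautosomal region (chrX:2219516-2502805), was 1 of them. It went from 21.8, 19.5 and 19.4 CPM to 91.8, 91.0 and 86.5 CPM, 4.41-fold (2.14 ± 0.10, adjusted p = 6.47e-11). PNMA5 rose 37.9-fold, from between 0.714 and 1.12 CPM to between 31.2 and 43.1 CPM.

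**Figure D2:**
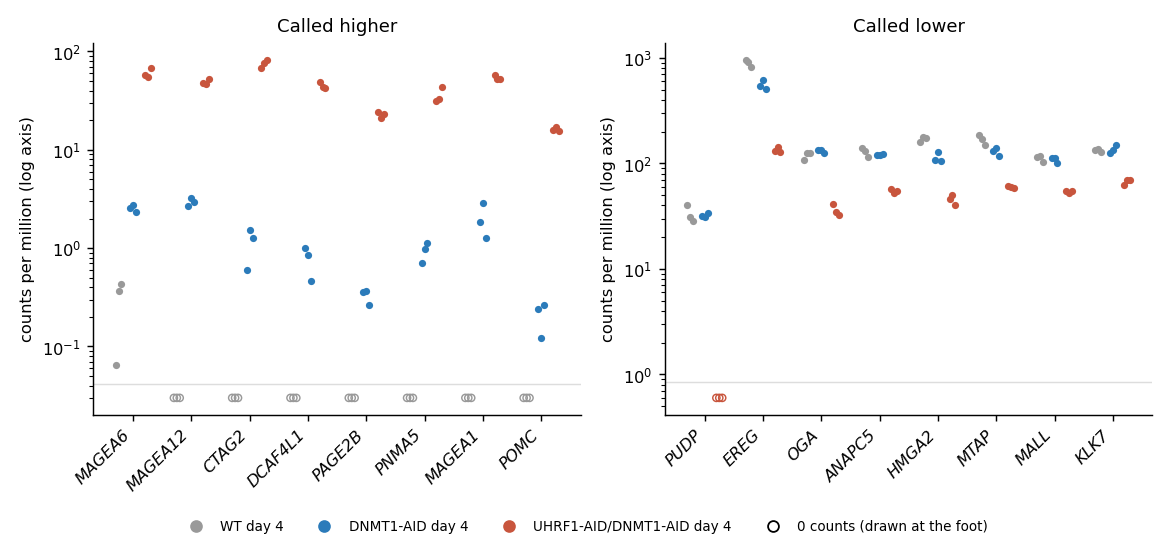
Points are single libraries of day 4, with CPM on a log axis for the 8 genes of smallest p in each direction, and open circles at the foot stand for 0 counts. In the left panel all UHRF1-AID/DNMT1-AID libraries (red) lie above all DNMT1-AID libraries (blue) and most WT libraries (grey) are at 0, and in the right panel the red points lie below both other groups, with PUDP at 0.

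Genes of the germline piRNA pathway and of meiosis rose likewise, most of them on autosomes. piRNAs are small RNAs that guide silencing of transposons in germ cells, and CpG-rich promoters of several of these genes are known to be methylated in somatic cells. Of 65 members 30 were tested and 21 were called higher, none lower, with a median log2 fold change of 3.70 over those tested (3.14 with bounds). Without a filter, between 18 and 22 members exceeded 3 counts in a DNMT1-AID library and between 41 and 43 in a UHRF1-AID/DNMT1-AID library. The promoter windows of the members with the 2 smallest p are shown with CpG sites in capitals. The MAEL window (GRCh38.p14, chr1:166975332-166975631, plus strand) holds 60 CpG and the SOHLH1 window (chr9:135699432-135699731, minus strand) 25.
MAEL: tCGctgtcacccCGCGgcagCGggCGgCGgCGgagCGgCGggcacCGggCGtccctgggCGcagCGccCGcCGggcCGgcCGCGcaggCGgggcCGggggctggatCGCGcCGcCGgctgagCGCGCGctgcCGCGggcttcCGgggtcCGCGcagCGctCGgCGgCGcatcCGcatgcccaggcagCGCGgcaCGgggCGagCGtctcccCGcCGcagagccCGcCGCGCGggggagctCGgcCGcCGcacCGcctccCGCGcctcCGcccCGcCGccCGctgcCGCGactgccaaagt
SOHLH1: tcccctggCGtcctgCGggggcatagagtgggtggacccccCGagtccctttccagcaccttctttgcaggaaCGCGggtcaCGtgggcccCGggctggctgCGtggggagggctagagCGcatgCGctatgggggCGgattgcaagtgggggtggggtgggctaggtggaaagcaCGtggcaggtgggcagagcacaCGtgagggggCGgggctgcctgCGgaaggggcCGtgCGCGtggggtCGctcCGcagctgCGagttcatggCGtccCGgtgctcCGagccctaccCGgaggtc

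MAEL, a nuage protein of piRNA silencing, was at 0.774, 1.1 and 1.12 CPM in DNMT1-AID and at 22.6, 19.5 and 23.2 CPM in UHRF1-AID/DNMT1-AID libraries, a 21.7-fold rise (4.44 ± 0.20, adjusted p = 6.47e-11). SOHLH1, a transcription factor of early germ cell differentiation, went from 1.31, 0.913 and 1.92 CPM to 20.9, 14.5 and 18.7 CPM, 13.1-fold (adjusted p = 6.86e-09). TEX101, a germ cell surface protein, had 3 counts or fewer in each DNMT1-AID library and between 5.48 and 6.46 CPM with both proteins lost, at least 30.6-fold higher (adjusted p = 2.19e-08). None of the 3 genes overlapped between groups, and none had a count in WT cells at day 4. Among members chosen after their values were seen, DAZL, a germ cell RNA-binding protein, rose from at most 0.304 CPM to 7.52, 12.8 and 17.3 CPM (6.02 ± 0.44, adjusted p = 6.28e-07). DPPA5, a marker of primordial germ cells and pluripotency, was at 0 in all DNMT1-AID libraries and between 3.98 and 4.26 CPM with both lost, at least 21.0-fold higher.

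Promoter windows were found for 31 of the 37 tested cancer/testis members and for 25 of the 30 germline members. Windows were matched by symbol, and the RefSeq start can lie apart from that of the counted gene: it was within 1000 bases of it for 28 of the 31 and 23 of the 25, and for 84.3% of the 10986 tested genes with a window. The median ratio of observed to expected CpG was 0.484 in the cancer/testis and 0.75 in the germline windows, against 0.838 over the windows of tested genes and 0.579 over all 35116 RefSeq windows. The ratio exceeded 0.6 in 10 of 31 and 19 of 25 windows, in 82.3% of those of tested genes and in 48.8% of all. The E-box CACGTG was present in 6 of 31 and 5 of 25 windows, against 10.1% for tested genes and 7.26% of all. The ETS site CCGGAAGT was present in 0 of 31 and 3 of 25, against 8.55% and 4.14% (both strands searched). Only 548 of the 818 genes called higher (67.0%) had a window, and 119 of those called lower (76.3%), under the 80% required for a comparison of called with other promoters, which is therefore void.

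Genes often hypermethylated in colorectal cancer were split. Of 45 members 25 were tested, 10 (40.0%) were called higher and 1 (4.0%) lower, against 5.74% and 1.1% of all tested genes. The median log2 fold change was 0.22. Of the tested members 6 had 3 counts or fewer in every DNMT1-AID library and passed the filter only through their level with both lost. Without a filter, between 20 and 21 of the 45 exceeded 3 counts in a DNMT1-AID library and between 30 and 32 in a UHRF1-AID/DNMT1-AID library. UCHL1, a deubiquitinase, went from 1.55, 2.62 and 3.63 CPM to 58.5, 61.2 and 65.6 CPM, 23.8-fold (adjusted p = 3.98e-10), with no count in WT cells at day 4. UNC5C, a netrin receptor, went from 0.0595, 0.487 and 0.198 CPM to 21.1, 16.6 and 14.8 CPM (6.09 ± 0.33, adjusted p = 1.25e-09). GATA5, an endodermal transcription factor, had 3 counts or fewer in every DNMT1-AID library and 3.01, 3.35 and 2.94 CPM with both lost, at least 15.6-fold higher. Both UCHL1 and UNC5C were well separated between groups. The 1 member called lower was VGF, a neuropeptide precursor (-1.73 ± 0.31, adjusted p = 0.0107), at 36.5, 45.6 and 20.8 CPM and then at 11.4, 11.1 and 8.69 CPM.

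Outside the lists, DCAF4L1, a retrogene related to a ubiquitin ligase substrate receptor, was among the genes of smallest p. It rose from 1.01, 0.852 and 0.463 CPM to 48.7, 43.4 and 42.0 CPM, 56.3-fold (adjusted p = 2.36e-12). POMC, the precursor of corticotropin and melanocortins, rose from between 0.122 and 0.264 CPM to between 15.7 and 17.1 CPM (6.24 ± 0.27). Among genes with 3 counts or fewer in each DNMT1-AID library, the highest levels with both lost were those of NPTX2, a synaptic pentraxin, the non-coding LINC00200, ELOVL4, an elongase of very long fatty acids, and the imprinted NNAT. They reached means of 8.55, 8.68, 7.96 and 7.74 CPM, at least 43.1-, 43.8-, 40.1- and 39.1-fold higher. Of these only NNAT had any count in WT day 4 cells. Of 45 imprinted genes 30 were tested and 5 (16.7%) were called higher, none lower, against 5.74% and 1.1% of all tested genes. Among the 5 was MEG3, a maternally expressed non-coding RNA, at 0 in all DNMT1-AID libraries and at 2.19, 2.45 and 2.94 CPM with both lost.

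Interferon-stimulated genes, which answer to double-stranded RNA and interferon, were already above WT in DNMT1-AID cells, and replicate 3 of UHRF1-AID/DNMT1-AID stood apart from its group. Their summed level over 53 members was 7517, 6743 and 8007 CPM in WT day 4, 23880, 16680 and 20950 CPM with DNMT1 lost, and 28590, 26270 and 14880 CPM with both lost. The 2 degron groups overlapped, with replicate 3 of the latter below every DNMT1-AID library. That replicate was the lowest of its group for 47 of 48 tested members, and replicate 2 of DNMT1-AID was lowest for 42 of 48. Of the 48 members 2 (4.17%) were called higher and none lower, where 5.74% and 1.1% of all tested genes were. The median log2 fold change was 0.30. Without UHRF1-AID/DNMT1-AID replicate 3 the median was 0.57 and 6 were called higher, and without DNMT1-AID replicate 2, DNMT1-AID replicate 3 or UHRF1-AID/DNMT1-AID replicate 2 none was.

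MX1, an antiviral GTPase, had the largest rise of the list. It was at 10.7, 4.57 and 4.89 CPM in DNMT1-AID and at 340, 272 and 103 CPM in UHRF1-AID/DNMT1-AID libraries (5.13 ± 0.71, adjusted p = 0.0127), and at a mean of 1.94 CPM in WT cells. Even its lowest value with both lost was above all values with DNMT1 lost, but the adjusted p was between 0.0509 and 0.059 without DNMT1-AID replicate 2 or 3 or UHRF1-AID/DNMT1-AID replicate 2. The MX1 window (GRCh38.p14, chr21:41420308-41420607, plus strand) holds the core of the interferon response element (GAAA, any 2 bases, GAAA) once, in capitals, as 2.73% of the windows of tested genes and 3.57% of all RefSeq windows do on either strand.
MX1: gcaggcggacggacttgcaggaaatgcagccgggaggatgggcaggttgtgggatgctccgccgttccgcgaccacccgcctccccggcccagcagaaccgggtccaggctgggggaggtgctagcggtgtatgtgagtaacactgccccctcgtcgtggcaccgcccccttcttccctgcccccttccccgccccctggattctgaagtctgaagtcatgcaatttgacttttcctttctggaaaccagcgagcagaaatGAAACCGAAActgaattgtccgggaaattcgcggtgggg

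The other called member, XAF1, a proapoptotic factor, overlapped between groups, at 1.49, 1.16 and 1.25 CPM against 4.07, 4.26 and 1.1 CPM (adjusted p = 0.0489). IFITM1, ISG15, IFI27 and IFI6, chosen after their values were seen as abundant members, gave adjusted p of 0.133, 0.135, 0.548 and 0.72. IFITM1, a membrane protein that blocks viral entry, was at 700, 291 and 511 CPM and then at 1822, 1554 and 773 CPM. IRF7, the transcription factor that amplifies the interferon response, was higher in all 3 libraries at a smaller size (0.60 ± 0.13, adjusted p = 0.00552). Against 5.74% of all tested genes, 2 of 22 antigen presentation genes (9.09%) were called higher. These were the immunoproteasome subunit PSMB8 (15.2 to 16.8 CPM against 93.5, 77.6 and 39.5 CPM, adjusted p = 0.0187) and HLA-G, a non-classical class I molecule with few counts (at least 13.1-fold higher). PSMB8 was again lowest in replicate 3, and its adjusted p was between 0.0697 and 0.0993 without any 1 DNMT1-AID library and 0.0511 without UHRF1-AID/DNMT1-AID replicate 2.

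Replication-dependent histone genes, whose transcripts mostly lack poly(A) tails and are therefore only partly captured in these libraries, rose in part. Of 65 members 20 were tested, 8 were called higher and none lower, with a median log2 fold change of 0.82. Their summed level was 272, 227 and 326 CPM with DNMT1 lost and 616, 590 and 611 CPM with both lost, without overlap. H1-2, a linker histone, was at 41.7, 30.4 and 47.8 CPM and then at 173.5, 156.6 and 169.2 CPM, 4.15-fold (adjusted p = 2.38e-07). H2BC12 rose 2.21-fold, from between 35.9 and 53.2 CPM to between 93.3 and 109 CPM (1.15 ± 0.12). H2BC21 rose 2.62-fold to between 16.1 and 22 CPM. Histone genes are short, and across genes the day 4 log2 fold change fell with gene length (Spearman rho -0.173 over 14246 genes). With a length offset 6 of the 20 were called, H2BC12 no longer among them at 0.99. The part of length in these differences was not tested further.

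E2F targets, the genes of DNA replication and S phase entry, shifted the other way by small amounts. None of 86 tested members passed the fold threshold in either direction in edgeR or DESeq2, but 39 were lower at an adjusted p under 0.05 alone in edgeR (32 in DESeq2, 50 at an unadjusted p under 0.05) and 0 were higher, where 9.79% of all genes were lower and 10.7% higher by that rule. The median log2 fold change was -0.37. Without DNMT1-AID replicate 1, 17 members were lower by that rule, and without UHRF1-AID/DNMT1-AID replicate 2 or 3, 22 or 25. Summed over 87 members, the level was 5563, 4463 and 4793 CPM with DNMT1 lost and 4434, 4078 and 3980 CPM with both lost, against between 5274 and 5823 CPM in WT. The groups did not overlap, though the lowest DNMT1-AID and highest UHRF1-AID/DNMT1-AID libraries were close. Scaled by the spike-in counts, 61 members were lower, but the median of all genes was then itself at -0.16. The list median minus that of all genes was -0.364 under this scaling and -0.361 in the main fit.

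CDT1, which licenses replication origins, was at 89.3, 84.6 and 72.8 CPM in DNMT1-AID and at 52.0, 48.5 and 52.0 CPM in UHRF1-AID/DNMT1-AID libraries (-0.70 ± 0.10, adjusted p = 5.41e-05). LMNB1, the gene of lamin B1, was at 50.8, 46.6 and 43.6 CPM and then at 29.4, 29 and 30.1 CPM (-0.68 ± 0.10, adjusted p = 0.000102). Neither gene overlapped between groups. MCM3, a subunit of the replicative helicase, was at 110, 94.3 and 101 CPM and then at 76.7, 71.3 and 75.6 CPM (-0.45 ± 0.09, adjusted p = 0.00139). PCNA, the sliding clamp, overlapped between groups (adjusted p = 0.477). CDT1, LMNB1, MCM3 and PCNA were chosen after their values were seen. The E2F letters TTTCGCGC, TTTGGCGC or TTTCCCGC stood on either strand in 32 of 71 promoter windows of the list, in 4.54% of those of tested genes and in 2.74% of all RefSeq windows. The MCM3 window (GRCh38.p14, chr6:52284693-52284992, minus strand) holds a pair of them, in capitals.
MCM3: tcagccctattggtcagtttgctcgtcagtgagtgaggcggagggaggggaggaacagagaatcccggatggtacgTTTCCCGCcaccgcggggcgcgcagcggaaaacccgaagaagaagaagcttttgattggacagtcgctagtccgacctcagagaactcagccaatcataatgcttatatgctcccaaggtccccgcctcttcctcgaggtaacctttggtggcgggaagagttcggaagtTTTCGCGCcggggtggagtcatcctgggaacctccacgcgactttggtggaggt

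Other cell cycle lists gave counts of the same kind. Of 42 tested S phase genes 18 were lower and 0 higher at an adjusted p under 0.05 in edgeR (24 and 0 unadjusted), with a median of -0.34. Of 54 G2/M genes 17 were lower and 1 higher, with a median of -0.24. That number of lower genes was 6 without DNMT1-AID replicate 1 (median -0.12) or UHRF1-AID/DNMT1-AID replicate 2, 11 without UHRF1-AID/DNMT1-AID replicate 1 or 3, and 6 when all 24 libraries were fitted together. None of these was called with the fold threshold. S phase and E2F lists share members, so they are not separate observations. KITLG, the stem cell factor gene and a p53 target, was at 683, 742 and 598 CPM with DNMT1 lost and at 366, 360 and 269 CPM with both lost, without overlap (-1.03 ± 0.12, adjusted p = 1.83e-05).

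Among the ligands of the EGF receptor, which drive epithelial growth, 2 were called lower. EREG (epiregulin) was at 548, 612 and 512 CPM in DNMT1-AID and at 130, 143 and 128 CPM in UHRF1-AID/DNMT1-AID libraries, 0.239 of the former (-2.06 ± 0.09, adjusted p = 6.54e-11). AREG (amphiregulin), also on chromosome 4, was at 325.5, 407 and 272 CPM and then at 133, 134 and 119 CPM (-1.38 ± 0.13, adjusted p = 5.07e-06). Both were clearly separated between groups at day 4. Before auxin the line with both degrons already stood lower, without a call, by -0.83 for EREG (adjusted p = 0.317) and -1.05 for AREG (adjusted p = 0.347), and the change between days was not called for either (interaction -1.20, adjusted p = 0.0631, and -0.29, adjusted p = 0.795). The mean in WT cells at day 4 was 900 CPM for EREG and 462 for AREG, above both degron groups. The receptor ERBB3 was lower at a smaller size (-0.50 ± 0.11, adjusted p = 0.00324) and the ligand HBEGF higher (0.50 ± 0.14, adjusted p = 0.0166). The receptor EGFR did not overlap between groups either but varied among the DNMT1-AID libraries (67.1, 113 and 55.5 CPM) and gave -0.79 ± 0.29 (adjusted p = 0.134), and TGFA, another ligand, -0.08 ± 0.09 (adjusted p = 0.563). In all, 2 of 10 tested members were called lower and none higher. The EREG window (GRCh38.p14, chr4:74364895-74365194, plus strand), shown with CpG sites in capitals as that of the list member with the smallest p, holds 12 CpG.
EREG: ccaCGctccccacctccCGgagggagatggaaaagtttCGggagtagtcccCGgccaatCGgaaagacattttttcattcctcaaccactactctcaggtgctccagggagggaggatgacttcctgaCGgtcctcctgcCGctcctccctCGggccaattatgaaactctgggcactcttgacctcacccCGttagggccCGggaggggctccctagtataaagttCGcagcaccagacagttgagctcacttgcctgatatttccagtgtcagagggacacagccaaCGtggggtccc

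**Figure D3:**
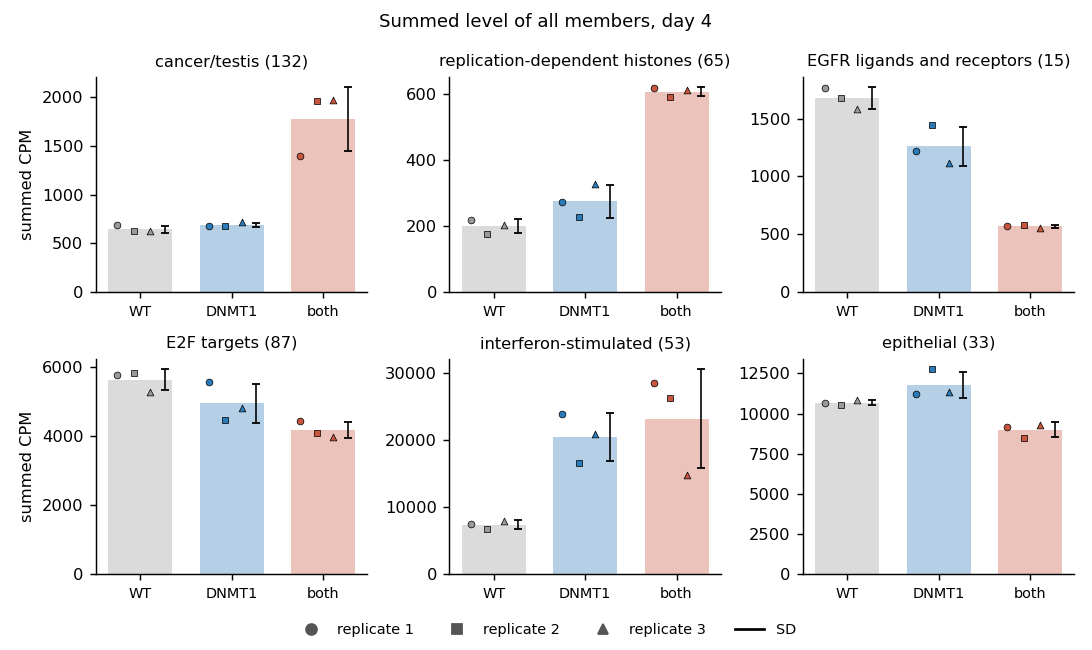
Bars are the mean over 3 libraries of the summed CPM of all members of a list (number in brackets), points are the libraries, vertical lines are the SD, and WT, DNMT1 and both stand for WT, DNMT1-AID and UHRF1-AID/DNMT1-AID at day 4. Cancer/testis and histone sums are higher and EGFR ligand and receptor, E2F target and epithelial sums lower with both proteins lost, while the interferon-stimulated sum overlaps with that of DNMT1-AID, with replicate 3 at 14880 CPM.

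The growth regulators and enzymes among the strongest falls did not form 1 list. HMGA2, a chromatin architectural protein of the embryo and of tumours, was at 109, 128 and 105 CPM in DNMT1-AID and at 45.8, 50.1 and 40.4 CPM in UHRF1-AID/DNMT1-AID libraries (-1.33 ± 0.10, adjusted p = 9.61e-08). MTAP, an enzyme of methionine salvage, was at 133, 140 and 118 CPM and then at 61.2, 59.9 and 59.1 CPM (-1.12 ± 0.09, adjusted p = 1.18e-07). Neither overlapped between groups. MALL, a membrane raft protein, and KLK7, a secreted serine protease, fell to 0.495 and 0.493 of their level with DNMT1 lost. The metallothioneins, which bind zinc and copper, had a summed level between 678 and 752 CPM with DNMT1 lost and between 368 and 426 CPM with both lost. Of 5 tested members 1 was called, higher, which was the scarce MT1L. MT2A, chosen after its values were seen, was at 445, 446 and 405 CPM and then at 217, 234 and 201 CPM, just under the fold threshold (-0.997 ± 0.087, adjusted p = 3.76e-07).

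Genes of the WNT pathway, which APC or beta-catenin mutations keep active in colorectal tumours, were split, with 3 of 6 tested antagonists called higher. NOTUM, an enzyme that inactivates WNT ligands, was at 55.0, 22.7 and 44.7 CPM in DNMT1-AID and at 293, 288 and 316 CPM in UHRF1-AID/DNMT1-AID libraries, 7.31-fold (2.87 ± 0.36, adjusted p = 0.00783). DKK4, which blocks a WNT co-receptor, was at 2.38, 0.304 and 1.32 CPM and then at 35.2, 35.5 and 27.4 CPM (4.59 ± 0.45, adjusted p = 0.00115). Replicate 2 of DNMT1-AID was the lowest for both, and the groups did not overlap for either gene. SFRP1, a soluble WNT-binding protein often methylated in colorectal cancer, was at least 18.6-fold higher, so 3 of 6 tested antagonists were called higher and none lower. The other 3 lay below 0, under the fold threshold. These were KREMEN2 (-0.79, adjusted p = 0.0132), DKK1 (-0.60, adjusted p = 0.118) and KREMEN1 (-0.25, adjusted p = 0.0779). Of 16 beta-catenin targets 5 were called higher, NOTUM again among them, and 1 lower, the last being the feedback inhibitor NKD2 (-1.12 ± 0.27, adjusted p = 0.00898). The list median was 0.22. At an adjusted p under 0.05 alone in edgeR 7 were higher and 3 lower, where 10.7% and 9.79% of all tested genes were. TCF7 (-0.52) and CCND1 (-0.38) were among the lower, and MYC gave -1.19 (adjusted p = 0.0852). AXIN2, a scaffold of the destruction complex, was at 6.31, 4.50 and 5.29 CPM and then at 16.4, 16.2 and 17.1 CPM (1.62 ± 0.16, adjusted p = 1.69e-06). At day 0 its log2 fold change between the lines was 1.82 (adjusted p = 0.281). The growth factor BMP4 gave 1.06 ± 0.11 at day 4 (adjusted p = 2.35e-06) and 1.201 at day 0 (adjusted p = 0.332).

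Epithelial genes had few calls, and 5 of 17 tested mesenchymal genes (29.4%) were called higher and 1 (5.88%) lower. Of 30 tested epithelial genes 2 (6.67%) were called higher and 1 (3.33%) lower, against 5.74% and 1.1% of all tested genes. At an adjusted p under 0.05 alone in edgeR 3 epithelial genes were higher and 10 lower, where 10.7% and 9.79% of all tested genes were. The epithelial median was -0.23. CDX2, the transcription factor that sets intestinal identity, was at 23.7, 23.7 and 28.2 CPM and then at 62.5, 50.2 and 48.8 CPM (1.09 ± 0.12, adjusted p = 4.16e-06). ELF3, another epithelial transcription factor, went the other way, from 51.7, 74.4 and 62.8 CPM to 27.1, 31.6 and 32.5 CPM (-1.06 ± 0.12, adjusted p = 1.66e-05). Of the mesenchymal list, SPARC, a matrix protein, was at 1.78, 2.13 and 4.89 CPM and then at 30.8, 35.2 and 46.5 CPM (3.69 ± 0.37, adjusted p = 0.000882), with at most 0.0643 CPM in WT cells. At day 0 it was at 1.71, 2.06 and 0.965 CPM against 2.72, 3.15 and 17.9 CPM (2.35, adjusted p = 0.331), and its change between days was not called (interaction 1.36, adjusted p = 0.517). THY1, a surface glycoprotein of fibroblasts, rose from at most 0.463 CPM to between 6.18 and 8.52 CPM (5.30 ± 0.46, adjusted p = 8.66e-07). The fibroblast marker sum lay between 9.32 and 14.1 CPM with DNMT1 lost and between 16.6 and 20.8 CPM with both lost, and the part of other cell types in these values was not tested.

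With all libraries few genes were called between the 2 lines before auxin, but that number depended on 1 DNMT1-AID library, as given below. The study reported less DNA methylation in the untreated line with both degrons than in WT. It also reported more genes that differed from WT there than in either line with a single degron. The part of this earlier state in the day 4 differences was not tested. At day 0, 1 of 14007 tested genes (0.00714%) was called higher and 3 (0.0214%) lower in the line with both degrons, and these comparisons share no library with day 4. PUDP, a pseudouridine phosphatase gene (chrX:7048920-7148190), was at 31.8, 31.4 and 34.2 CPM in DNMT1-AID day 4 libraries and had no count in any UHRF1-AID/DNMT1-AID library of either day. At day 0 it stood at 32.3, 31.0 and 27.8 CPM in DNMT1-AID cells, and at day 4 it was at least 168-fold lower with both degrons. OGA, which removes O-GlcNAc from proteins, was at 136, 133 and 126 CPM with DNMT1 lost and at 41.4, 34.8 and 32.5 CPM with both lost. Before auxin it was at 109, 120 and 142 CPM and at 49.7, 51.5 and 52.3 CPM in the same lines, so that the lines differed at both times (-1.86 ± 0.10 at day 4 and -1.25 ± 0.12 at day 0). ANAPC5, a subunit of the anaphase-promoting complex, gave -1.14 ± 0.08 at day 4 and -1.29 ± 0.11 at day 0. These 3 genes were the overlap of the lower calls, 1.92% of the 156 and 100% of the 3. In the UHRF1-AID day 4 libraries, outside the comparison, PUDP was at 30.05, 0.315 and 30.7 CPM. OGA was at 151.7, 44.6 and 164.4 CPM there and ANAPC5 at 103.6, 65.8 and 117.7 CPM, with replicate 2 the lowest for each. Whether libraries of these lines share a founder clone was not tested. GLYR1, a nucleosome-binding factor, was called higher at day 0 (1.05 ± 0.11) and stood at 0.83 ± 0.10 at day 4. KRT23 and PDE4D, next by p at day 0, had adjusted p of 0.0641 and 0.066.

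Replicate 3 of DNMT1-AID day 0 stood apart from its group, and without it 1017 genes were called higher (7.08% of 14356) and 94 lower (0.655%) at day 0. Of these 48 were among the 818 higher at day 4, 5.87% of the latter and 4.72% of the former. For the lower genes 24 were shared, 15.4% of the 156 and 25.5% of the 94. With all libraries, 594 of the 818 genes were too scarce for a test at day 0. Of the other 224, 167 (74.6%) were on the higher side there, as were 50.4% of all genes tested at day 0, and the median of the 224 was 0.38 at day 0 and 1.52 at day 4. Of the 156 lower genes 146 were tested at day 0, and 105 of them (71.9%, against 49.6% of all) were under 0, with a median of -0.32 at day 0 and -1.26 at day 4. In 306 of the higher genes every library of both lines had 3 counts or fewer at day 0.

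The interaction over all 12 libraries asked for which genes the line difference at day 4 was not the one at day 0. Of 15149 genes tested 93 (0.614%) had a larger and 57 (0.376%) a smaller log2 fold change at day 4. Without replicate 3 of DNMT1-AID day 0 these were 320 and 1051. DHRSX differed little between the lines before auxin, with a log2 fold change of 0.07, and by 2.14 after it (interaction 2.11, adjusted p = 0.000747). MTAP at day 0 was at 252, 264.5 and 234.5 CPM in DNMT1-AID cells and at 262, 271 and 259 CPM in the line with both degrons, and was lower in the latter at day 4 (interaction -1.19, adjusted p = 0.000482). H1-2 likewise gave 0.34 before auxin and 2.05 after (interaction 1.75, adjusted p = 0.0023). BEX4, an X-linked gene of a small acidic protein, changed sides. It was at 2.22, 1.45 and 1.69 CPM against 0.219, 0.294 and 0.214 CPM at day 0, and at 2.74, 4.02 and 5.48 CPM against 11.8, 13.2 and 17.4 CPM at day 4 (interaction 4.65, adjusted p = 0.000197).

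**Figure D4:**
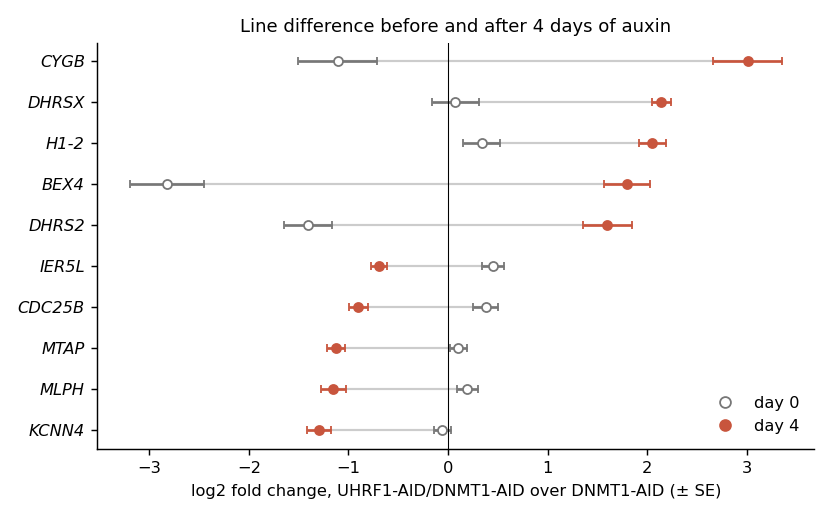
For the 5 genes of smallest p in each direction of the interaction, the log2 fold change of UHRF1-AID/DNMT1-AID over DNMT1-AID is drawn on the x axis at day 0 (open circles) and day 4 (filled circles), with bars for the SE. CYGB, BEX4 and DHRS2 lie below 0 at day 0 and above it at day 4, while KCNN4 and MTAP lie close to 0 at day 0 and near -1.30 and -1.12 at day 4.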

How the data were processed

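RNA was measured by poly(A) RNA-seq in 24 libraries of 8 groups with 3 replicates each, and 6 of these libraries make up the main comparison. Per the study's methods, the authors used Trimmomatic for trimming, STAR for alignment (hg38) and featureCounts for the counting. What they deposited are raw counts of 58735 genes and 92 spike-in sequences, and the spike-in rows entered library sizes only in the spike-in alternative. Strand, the handling of reads that match several genes and the annotation release are not given in the sources used here, so near-identical and overlapping genes are uncertain.

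Counts were filtered (filterByExpr), scaled by TMM and tested with edgeR 4.0.16 (glmQLFit, robust; glmQLFTest) in R 4.3.3, with Benjamini-Hochberg adjustment over all tested genes. As in the study's methods, a call needed a log2 fold change beyond ±1 with an adjusted p under 0.05. Legends of the study's supplementary RNA-seq figures give 0.01 instead, and at that threshold 684 genes were called higher and 108 lower at day 4. The fits were day 4 (6 libraries), day 0 (6) and their difference (12). CPM was scaled by TMM over the 24 libraries. Means of CPM are given without a pseudocount, and ± is the SE of the log2 fold change. A count of 3 per library served as floor for genes at or under 3 counts in every library of a group, whose fold is a lower bound. Gene positions come from the count tables (hg38) and promoter sequences from RefSeq (GRCh38.p14, 250 bases before to 50 after the start), matched by symbol for 10986 of 14246 tested genes. Depth was 15824804 to 16987046 counts a library at day 4 and 20609617 to 23972076 at day 0, which limits genes under about 1 CPM.

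On simulated counts with known changes the day 4 fit recovered 97.4% of changed genes, the day 0 fit 94.4% and the interaction 82.1%. The planted changes were all larger than the fold threshold and lay in genes that had passed the filter. These rates therefore say nothing about smaller changes or scarcer genes. Seurat 5.3.0 gave the S and G2/M lists. Genes named are UHRF1, DNMT1 and the DNMT3 and TET genes, the 8 of smallest p in each direction at day 4 without overlap, the 3 in each direction at day 0, the 5 in each direction for the interaction, the 5 highest genes at the floor and the 3 called members of smallest p in each list. The comparison and the gene lists were chosen with earlier results of these data known. Alternatives were RLE scaling, other filters, DESeq2 1.42.0, no minimum fold change, an adjusted p under 0.01, all 24 libraries in 1 fit, a replicate block, a gene length offset, spike-in scaling and leaving out each library. Same-numbered day 4 libraries did not deviate together (r = 0.11, -0.0587 and -0.0347), so they were not treated as pairs. Results for 1 gene that the rule would name are not reported here.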

Additional observations from a re-analysis of the deposited data

Results flagged for a closer look

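The difference between the UHRF1-AID/DNMT1-AID and DNMT1-AID lines at day 4 was tested against the same difference at day 0 by an interaction term (edgeR, 12 libraries), and 93 genes gave a larger and 57 a smaller log2 fold change at day 4. Among the 5 genes of smallest p with a larger one, the interaction on the log2 scale was 4.65 for BEX4, 4.16 for the oxygen-binding globin CYGB, 3.05 for the short-chain dehydrogenase DHRS2, 2.11 for DHRSX and 1.75 for the linker histone H1-2. CYGB had a log2 fold change of -1.11 at day 0 and 3.01 at day 4, and DHRS2 of -1.41 and 1.602. Among those with a smaller one, it was -1.32 for MLPH, a linker of melanosomes to myosin, -1.25 for the cell cycle phosphatase CDC25B, -1.20 for the potassium channel KCNN4, -1.19 for MTAP and -1.11 for IER5L, an immediate early response gene. The line differences of these 5 at day 4 lay between -1.30 and -0.69. Groups of 3 libraries were too small for a test of single outlying libraries.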

How the results depend on the processing

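At day 4 no call of the 974 reversed under any alternative, and of 80 named genes called there 59 kept their call under every alternative that tested them. Without a filter on low counts 1265 genes were called higher, with at least 10 counts in every library 255, and without a minimum fold change 1524 higher and 1395 lower. Spike-in scaling gave 264 lower. Leaving out 1 library gave between 803 and 945 higher and between 116 and 182 lower, and all other settings stayed within 1.5 times. The day 0 counts depended on the setting. They were 70 higher and 34 lower without a filter, 47 and 26 in DESeq2, 23 and 18 with all 24 libraries in 1 fit, 2 higher with a length offset, and 0 higher at an adjusted p under 0.01. Leaving out 1 library at day 0 gave 0 to 1017 higher and 1 to 94 lower, the highest without DNMT1-AID replicate 3, an alternative whose overlap with day 4 was added after seeing the data.

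For the interaction, the numbers larger and smaller were 198 and 250 without a filter, 194 and 152 in DESeq2, 173 and 145 without a minimum fold change, and 21 and 14 at an adjusted p under 0.01. With at least 10 counts 41 were larger, and with all 24 libraries 38 were smaller. Leaving out 1 library gave 29 to 320 larger and 21 to 1051 smaller. Without 1 library the larger count was 29 (UHRF1-AID/DNMT1-AID day 4 replicate 1), 44 and 55 (its replicates 2 and 3), 60 and 56 (DNMT1-AID day 4 replicates 1 and 2), 47 and 47 (UHRF1-AID/DNMT1-AID day 0 replicates 1 and 2), and 59, 52 and 320 (DNMT1-AID day 0 replicates 1, 2 and 3). The smaller count was 21, 22 and 29 (UHRF1-AID/DNMT1-AID day 4 replicates 1, 2 and 3) and 27 (DNMT1-AID day 4 replicate 2). It was 25, 23 and 28 (UHRF1-AID/DNMT1-AID day 0 replicates 1, 2 and 3) and 27, 32 and 1051 (DNMT1-AID day 0 replicates 1, 2 and 3).

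The replicate block, though the numbers do not pair the samples, gave 806 higher and 154 lower at day 4, 2 higher and 4 lower at day 0, and 64 larger and 41 smaller interactions. Values close to 0 changed sign. DNMT3A at day 4 gave 0.008 with RLE scaling, 0.015 with at least 10 counts, 0.001 in DESeq2, 0.072 with a length offset, and from -0.105 to 0.076 on leaving out 1 library. TET2 gave -0.071 with spike-in scaling and from -0.096 (without DNMT1-AID replicate 2) to 0.277 on leaving out 1 library. At day 0, MTAP gave -0.091 with a length offset, and DHRSX -0.104 and -0.045 without replicate 3 of DNMT1-AID or UHRF1-AID/DNMT1-AID, with 0.321 as its highest value. The causes were not tested. Depth limits genes under 1 CPM, whose fold changes depend on the prior count.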

Other observations

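Several gene groups held a few strong rises without a shift of the whole group. Over all tested genes 5.74% were called higher and 1.1% lower. Of 24 tested genes of the TNF family and death receptors 5 were called higher and none lower, with a median log2 fold change of 0.08. TNFRSF1B, the second TNF receptor, was at 6.49, 4.75 and 5.48 CPM with DNMT1 lost and at 31.7, 30.6 and 26.6 CPM with both lost (2.40 ± 0.15, adjusted p = 3.48e-09), and the costimulatory ligand CD70 rose 5.21-fold. Of 18 keratins 3 scarce ones were called higher (KRT12, KRT17 and KRT40). KRT17 gave 2.14 at day 4 and 3.45 at day 0 (adjusted p = 0.27), and its change between days was not called (interaction -1.27, adjusted p = 0.362), while KRT8, a main keratin of simple epithelium chosen after its values were seen, went from between 2579 and 2661 CPM to between 1818 and 2054 CPM (-0.43 ± 0.10, adjusted p = 0.00404). Among 25 HOX genes 4 were called higher and 2 lower, with HOXD9 at least 7.91-fold higher and HOXA5 3.15-fold higher. APOBEC3G, a cytidine deaminase that restricts retroelements, was at 5.24, 4.38 and 2.97 CPM and then at 22.1, 24.1 and 11.6 CPM (2.18 ± 0.31, adjusted p = 0.00133). Of 5 endogenous retrovirus-derived genes tested 1 was higher and 1 lower at an adjusted p under 0.05, none past the fold threshold.

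Among 149 tested ZNF genes of chromosome 19, a family tied to silencing of transposons, 3 (2.01%) were called higher, against 5.74% of all tested genes, and none lower. These were ZNF599, ZNF702P and ZNF772, and the adjusted p of ZNF772 was between 0.0529 and 0.097 without DNMT1-AID replicate 3 or UHRF1-AID/DNMT1-AID replicate 1 or 2. Metabolic and housekeeping groups held few calls. SCD, the desaturase of fatty acid synthesis, was at 1278, 1445 and 925 CPM and then at 606, 597 and 599 CPM (-1.02 ± 0.13, adjusted p = 8.37e-05), the 1 call among 32 genes of lipid synthesis. HK2, a hexokinase, was the 1 call among 33 hypoxia and glycolysis genes (-1.17 ± 0.15, adjusted p = 3.44e-05). Of 81 cytosolic ribosomal protein genes the scarce RPL10L and RPL39L were called higher, and the median was 0.01. The mitochondrial rRNA gene MT-RNR1 was 2.06-fold higher, and its log2 fold change fell to between 0.87 and 0.95 with spike-in scaling, a length offset, or without DNMT1-AID replicate 2 or UHRF1-AID/DNMT1-AID replicate 3. The leukocyte marker CD14 was at most 0.264 CPM with DNMT1 lost and at 1.44, 0.645 and 0.979 CPM with both lost, while the summed leukocyte markers were between 30.4 and 41.6 CPM and between 11.3 and 31.8 CPM.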
